A study of Mus musculus with 10 samples.

Results

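Oligodendrocyte precursor and early differentiation genes were followed in fluorescence-sorted cells of mouse brain. The 10 genes were Pdgfra, Cspg4, Gpr17, Bcas1, Neu4, Tnr, Vcan, Lhfpl3, C1ql1 and Enpp6, taken by symbol from a table of 55487 genes. All 10 were present, and all 10 were among the 20379 genes that passed a filter on low counts. Pdgfra and Cspg4 were treated as precursor genes and Gpr17, Bcas1, Neu4 and Tnr as genes of committed cells, and the other 4 were placed in neither class. C1ql1 had at most 3 counts in any control library, so it passed the filter through the other libraries.

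Oligodendrocyte precursors persist in the adult brain, where they divide, carry the PDGF receptor α and the NG2 proteoglycan, and receive synaptic contacts from neurons. On leaving the cell cycle they pass through a short premyelinating state in which Gpr17, Bcas1 and Enpp6 are expressed, before the genes of compact myelin are turned on. In the hippocampus this renewal continues in adult life.

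The study addressed how the RNA-binding protein TDP-43, encoded by Tardbp, acts from neurons on myelin formation, with neurexin 1 named in its title. Groups were mice of genotype TDP-43flox/flox::CamKIIcre/- given AAV-FLEX-TDP-43mNLS-GFP (called cKO-mNLS here, n = 4 libraries), mice of the same genotype given AAV-FLEX-GFP (cKO-GFP, n = 3) and CamKIIcre/- mice given AAV-FLEX-GFP (NC-GFP, n = 3). All mice carried the Cre driver CamKII-Cre, which is active in forebrain excitatory neurons, and all received a Cre-dependent adeno-associated virus (AAV) in the dentate gyrus. GFP-positive cells were sorted 1 month later from brain suspensions pooled from 3 to 4 animals. Age and sex of the mice are not given in the labels. The labels also do not say whether the libraries of a group came from separate pools, so p-values measure the spread between libraries, which may in part be technical.

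Library totals lay between 17164162 and 29204279 counts. The libraries held RNA of many cell types. Over 20 genes of mature oligodendrocytes and myelin, the summed level was 6821 to 21120 CPM (counts scaled to library total) in cKO-mNLS, 11760 to 22710 in cKO-GFP and 16360 to 22590 in NC-GFP, and 2 libraries stood apart, cKO-mNLS replicates 1 and 2 at 6821 and 8545. Over 10 genes of excitatory neurons, the cells in which the driver is active, the sum was 532 to 1729 CPM in cKO-mNLS, 26.2 to 95.3 in cKO-GFP and 30.8 to 42.6 in NC-GFP. Tardbp itself stood at 206, 218, 337 and 185 CPM in cKO-mNLS, 120, 122 and 108 in cKO-GFP and 143, 128 and 121 in NC-GFP. It did not pass the test between cKO-GFP and NC-GFP (log2 fold change -0.16, adjusted p = 0.745). The sources used here do not say which exons are deleted or whether viral transcripts are counted to Tardbp. Tardbp therefore checks none of the genotype labels, and the groups are named as labelled. In such bulk samples, fewer cells of a type and less RNA per cell cannot be told apart.

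Tnr and Gpr17, 2 of the 4 genes of committed cells, accounted for the clearest differences, and the precursor genes for none that passed the test. Tnr averaged 94.1 ± 17.3 CPM (SD, n = 3) in cKO-GFP and 14.9 ± 7.91 CPM (SD, n = 3) in NC-GFP. Gpr17 averaged 35.7 ± 9.09 CPM in cKO-GFP and 8.75 ± 5.53 CPM in NC-GFP. In cKO-mNLS, Tnr averaged 69.1 ± 17.6 CPM and Gpr17 13.9 ± 3.96 CPM (SD, n = 4). Bcas1, the most abundant of the 10, averaged 104.5 ± 32.4 CPM in cKO-mNLS, 105 ± 21.3 in cKO-GFP and 104.3 ± 25.9 in NC-GFP. Calls were made with the quasi-likelihood test of edgeR, with p-values adjusted by Benjamini-Hochberg over all 20379 genes and a threshold of 0.05. By this test 2 of the 10 genes were higher in cKO-GFP than in NC-GFP, where 1.63% of all genes were called, 0.53% higher and 1.1% lower. Against cKO-GFP, 2 of the 10 were lower in cKO-mNLS, where 16.1% of all genes were called, 8.93% higher and 7.13% lower. Against NC-GFP, 1 of the 10 was higher in cKO-mNLS, where 11.5% of all genes were called, 8.23% higher and 3.25% lower. Scaled to mature oligodendrocyte genes instead, calls over all genes were 1630 higher and 52 lower in cKO-mNLS against cKO-GFP, and 2040 higher and 33 lower in cKO-mNLS against NC-GFP. The last comparison shares its groups with the other 2, so the 3 are not independent of each other.

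**Figure D1:**
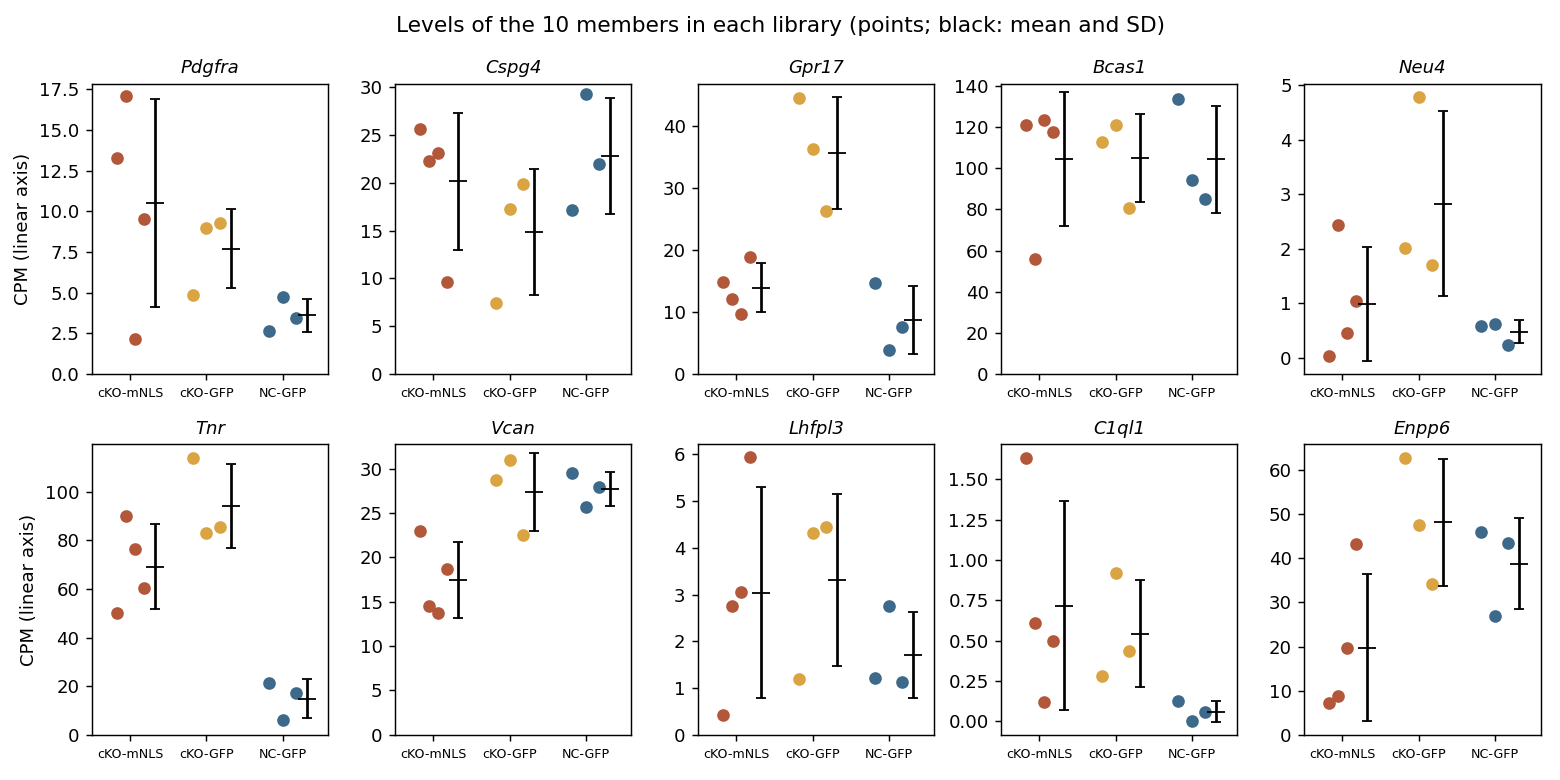
Level of each of the 10 genes in CPM (linear axis, its own range in each panel) in every library of cKO-mNLS, cKO-GFP and NC-GFP; points are libraries, and black marks give the mean and SD of the group. Tnr lies between 83.1 and 114 CPM in cKO-GFP and between 6.05 and 21.3 CPM in NC-GFP, while the groups of Bcas1 overlap.

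Upstream sequence is shown for Tnr and Vcan, the called genes that RefSeq's promoter table for GRCm38.p6 lists, and for Pdgfra as the defining precursor gene. Each run is the 250 bases before the annotated start, 5′ to 3′ on the gene's strand. Windows were found for 7 of the 10 genes, and Gpr17, Bcas1 and C1ql1 had no entry. Capitals mark matches on either strand to CAGCTG or CATCTG, E-box forms of the kind read by lineage factors such as Olig2, or to ACAAAG or ACAATG, core forms read by Sox proteins such as Sox10. No base of these motifs overlapped another match in the windows shown.
Tnr, chr1:159523519-159523768, plus strand: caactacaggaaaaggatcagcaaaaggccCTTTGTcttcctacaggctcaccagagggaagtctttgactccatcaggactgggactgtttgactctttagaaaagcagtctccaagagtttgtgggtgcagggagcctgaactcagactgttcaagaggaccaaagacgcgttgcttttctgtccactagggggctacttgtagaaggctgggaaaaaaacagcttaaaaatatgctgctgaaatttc
Vcan, chr13:89742513-89742762, minus strand: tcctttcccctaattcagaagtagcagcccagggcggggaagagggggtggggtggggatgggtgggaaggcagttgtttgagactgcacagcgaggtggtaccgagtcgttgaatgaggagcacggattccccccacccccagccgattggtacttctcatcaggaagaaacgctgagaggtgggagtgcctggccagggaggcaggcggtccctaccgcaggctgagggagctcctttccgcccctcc
Pdgfra, chr5:75152001-75152250, plus strand: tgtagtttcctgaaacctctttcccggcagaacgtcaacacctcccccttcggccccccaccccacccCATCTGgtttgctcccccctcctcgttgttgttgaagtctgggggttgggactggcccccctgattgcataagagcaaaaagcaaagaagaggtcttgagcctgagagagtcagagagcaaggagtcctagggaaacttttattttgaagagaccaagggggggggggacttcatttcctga
The Tnr window held 1 match, ACAAAG on the minus strand, which is printed as CTTTGT, and the Pdgfra window held 1 CATCTG. The Vcan window held none of the 4 motifs. Among 32841 windows of this length, 16.5% held ACAAAG, 14.4% CATCTG, 13.0% CAGCTG and 10.7% ACAATG, so matches of this number are common. GC content was 46.8% in the Tnr window, 62.4% in Vcan and 54.4% in Pdgfra, against a median of 52.4% over all windows.

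Pdgfra (chromosome 5, 75152292 to 75198215, plus strand, GRCm38), which encodes the receptor that drives precursor division, stood at 13.2, 17.1, 2.17 and 9.51 CPM in cKO-mNLS, at 4.88, 8.98 and 9.26 CPM in cKO-GFP and at 2.67, 4.71 and 3.45 CPM in NC-GFP. In CPM, all 3 cKO-GFP libraries lay above all 3 NC-GFP libraries, by a narrow gap, and cKO-mNLS spanned the widest range, with its replicate 3 below every other library. In the authors' TPM, an abundance scaled for transcript length and library total, cKO-GFP and NC-GFP overlapped. NC-GFP replicate 1 stood at 0.599 TPM and cKO-GFP replicate 1 at 0.35 TPM. The log2 fold change was 1.09 (SE 0.577, adjusted p = 0.37) for cKO-GFP against NC-GFP, 0.45 (SE 0.531, adjusted p = 0.629) for cKO-mNLS against cKO-GFP and 1.54 (SE 0.556, adjusted p = 0.104) for cKO-mNLS against NC-GFP. The last value passed the test without cKO-mNLS replicate 3 (1.88, adjusted p = 0.0081). Pdgfra is expressed by fibroblasts too, and Cspg4 by pericytes. Summed over 10 genes of pericytes and fibroblasts, the level was 146 to 303 CPM in cKO-mNLS, 137 to 264 in cKO-GFP and 198 to 233 in NC-GFP, and the part of those cells in either gene was not tested.

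Cspg4 (chromosome 9, 56865033 to 56899870, plus strand), the gene of the NG2 proteoglycan, is also a classical precursor marker. It stood at 25.6, 22.3, 23.1 and 9.58 CPM in cKO-mNLS, 7.45, 17.2 and 19.9 CPM in cKO-GFP and 17.2, 29.3 and 21.9 CPM in NC-GFP. In CPM the groups overlapped in all 3 comparisons. In the authors' TPM, Cspg4 in cKO-GFP (0.43, 1.097 and 0.953) lay below NC-GFP (1.669, 1.478 and 1.604) without overlap. On the log2(TPM + 0.1) scale, limma gave -0.94 for this comparison, which did not pass (adjusted p = 0.522). Its log2 fold change was -0.62 (SE 0.404, adjusted p = 0.479) for cKO-GFP against NC-GFP, with a sign opposite to that of Pdgfra, 0.44 (SE 0.380, adjusted p = 0.49) for cKO-mNLS against cKO-GFP and -0.18 (SE 0.375, adjusted p = 0.828) for cKO-mNLS against NC-GFP.

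Gpr17 (chromosome 18, 31942997 to 31949636, minus strand) encodes a receptor of the premyelinating state that holds back the final steps of differentiation. It stood at 14.9, 12.2, 9.74 and 19.0 CPM in cKO-mNLS, 44.5, 36.3 and 26.4 CPM in cKO-GFP and 14.7, 3.87 and 7.62 CPM in NC-GFP. In CPM, every cKO-GFP library lay above every library of the other 2 groups, which overlapped each other. In the authors' TPM, cKO-GFP stayed above NC-GFP, but cKO-mNLS replicate 4 (2.03) lay above cKO-GFP replicate 3 (1.85). On the log2 scale Gpr17 rose by 2.03 in cKO-GFP against NC-GFP (SE 0.425, adjusted p = 0.0402), and it fell in cKO-mNLS against cKO-GFP (-1.36, SE 0.379, adjusted p = 0.0323). In cKO-mNLS against NC-GFP it did not pass (0.67, SE 0.392, adjusted p = 0.329).

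Both calls on Gpr17 were close to the threshold and were lost without single libraries. The first was lost, at fold changes of 1.64 to 2.18, when NC-GFP replicate 2 (adjusted p = 0.106) or 3 (0.189), cKO-GFP replicate 1 (0.119), 2 (0.0538) or 3 (0.0967), or cKO-mNLS replicate 2 (0.0506) was left out. The second was lost without cKO-GFP replicate 1 (-1.11, 0.149), 2 (0.0757) or 3 (0.0724), or cKO-mNLS replicate 1 (0.0581), 2 (0.0826) or 3 (0.0758). Scaled to mature oligodendrocyte genes, the first value was 2.21 (adjusted p = 0.264) and the second -0.72 (adjusted p = 0.432). Gpr17 lies within Lims2 on the opposite strand, and 188 of its 5195 exon bases are shared. Lims2 did not follow it, at 6.54, 4.50, 3.42 and 5.93 CPM in cKO-mNLS, 6.96, 9.02 and 4.69 in cKO-GFP and 8.19, 8.08 and 6.55 in NC-GFP. The sources used here do not say whether counting used strand.

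Tnr (chromosome 1, 159523769 to 159931729, plus strand) encodes tenascin-R, a matrix glycoprotein of oligodendrocyte lineage cells and of some inhibitory neurons. It stood at 49.9, 89.9, 76.4 and 60.4 CPM in cKO-mNLS, 114, 83.1 and 85.3 CPM in cKO-GFP and 21.3, 6.05 and 17.4 CPM in NC-GFP. All 7 libraries of the TDP-43flox/flox genotype lay above all 3 of NC-GFP, with no library between 21.3 and 49.9 CPM. On the log2 scale Tnr rose by 2.66 in cKO-GFP against NC-GFP (SE 0.392, adjusted p = 0.00821). With NC-GFP replicate 3 left out this call was lost (2.79, adjusted p = 0.0527). It also rose in cKO-mNLS against NC-GFP (2.22, SE 0.372, adjusted p = 0.00327), and this call was kept under all 19 alternatives run, with adjusted p of at most 0.0196. Between cKO-mNLS and cKO-GFP the groups overlapped, and the fold change did not pass (-0.45, SE 0.340, adjusted p = 0.426). Summed over 10 inhibitory neuron genes, the level was 7.69 to 24.2 CPM in cKO-mNLS, 17.96 to 29.2 in cKO-GFP and 15.7 to 27.9 in NC-GFP, and those ranges overlapped.

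The authors' per-length values gave a smaller difference for Tnr than the counts did. In TPM, an abundance scaled for transcript length and library total, Tnr stood at 2.47, 6.53, 2.99 and 3.53 in cKO-mNLS, 5.06, 3.27 and 2.78 in cKO-GFP and 1.62, 0.454 and 0.913 in NC-GFP. The groups still did not overlap between either cKO group and NC-GFP. On the log2(TPM + 0.1) scale, limma gave 1.90 (adjusted p = 0.0696) for cKO-GFP against NC-GFP and 1.91 (adjusted p = 0.00917) for cKO-mNLS against NC-GFP. The length that relates the count of Tnr to its TPM, taken against genes with 1 transcript and chosen after the values were seen, was 12845, 6673, 11816 and 10217 bases in cKO-mNLS, 11128, 13005 and 12343 in cKO-GFP and 8022, 5149 and 10449 in NC-GFP. Each cKO-GFP library lay above each NC-GFP library in this length, and cKO-mNLS spanned both. The annotated coding transcripts of Tnr in GENCODE M21 are 12202, 4424, 837 and 541 bases long, and how the counts divide among them was not tested. For Gpr17 the same length was 5523 to 5743 bases in all 10 libraries, but a gene with 1 annotated transcript leaves it little room to move. A higher length in cKO-GFP was not particular to Tnr. For Cspg4 it was 8051 to 8565 bases in cKO-GFP and 6283 to 7648 in NC-GFP, also without overlap. For Pdgfra, Bcas1, Vcan and Enpp6 these groups overlapped. How often such a gap occurs over all genes was not determined.

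Neu4 (chromosome 1, 94020451 to 94028334, plus strand) encodes a sialidase that is abundant in the oligodendrocyte lineage. It had 1, 52, 11 and 29 counts in cKO-mNLS (0.0348, 2.44, 0.443 and 1.04 CPM), 57, 120 and 43 counts in cKO-GFP (2.00, 4.79 and 1.69 CPM) and 14, 16 and 4 counts in NC-GFP (0.585, 0.613 and 0.226 CPM). The cKO-GFP libraries all lay above NC-GFP, and cKO-mNLS overlapped both. At these counts no comparison passed, with log2 fold changes of 2.55 (SE 1.04, adjusted p = 0.244) for cKO-GFP against NC-GFP, -1.53 (SE 0.908, adjusted p = 0.296) for cKO-mNLS against cKO-GFP and 1.02 (SE 0.968, adjusted p = 0.576) for cKO-mNLS against NC-GFP.

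Bcas1 (chromosome 2, 170346991 to 170427845, minus strand), a gene of newly formed, early myelinating oligodendrocytes, stood at 121, 56.0, 123.5 and 117.5 CPM in cKO-mNLS, 113, 121 and 80.6 CPM in cKO-GFP and 133.7, 94.4 and 84.8 CPM in NC-GFP. The groups overlapped throughout. Its log2 fold change was 0.01 (SE 0.287, adjusted p = 0.995) for cKO-GFP against NC-GFP, -0.00 (SE 0.268, adjusted p = 0.996) for cKO-mNLS against cKO-GFP and 0.00 (SE 0.269, adjusted p = 0.996) for cKO-mNLS against NC-GFP. Each of these fold changes was smaller than its SE. Whether Bcas1 differed in response from Gpr17 or Tnr was not tested.

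**Figure D2:**
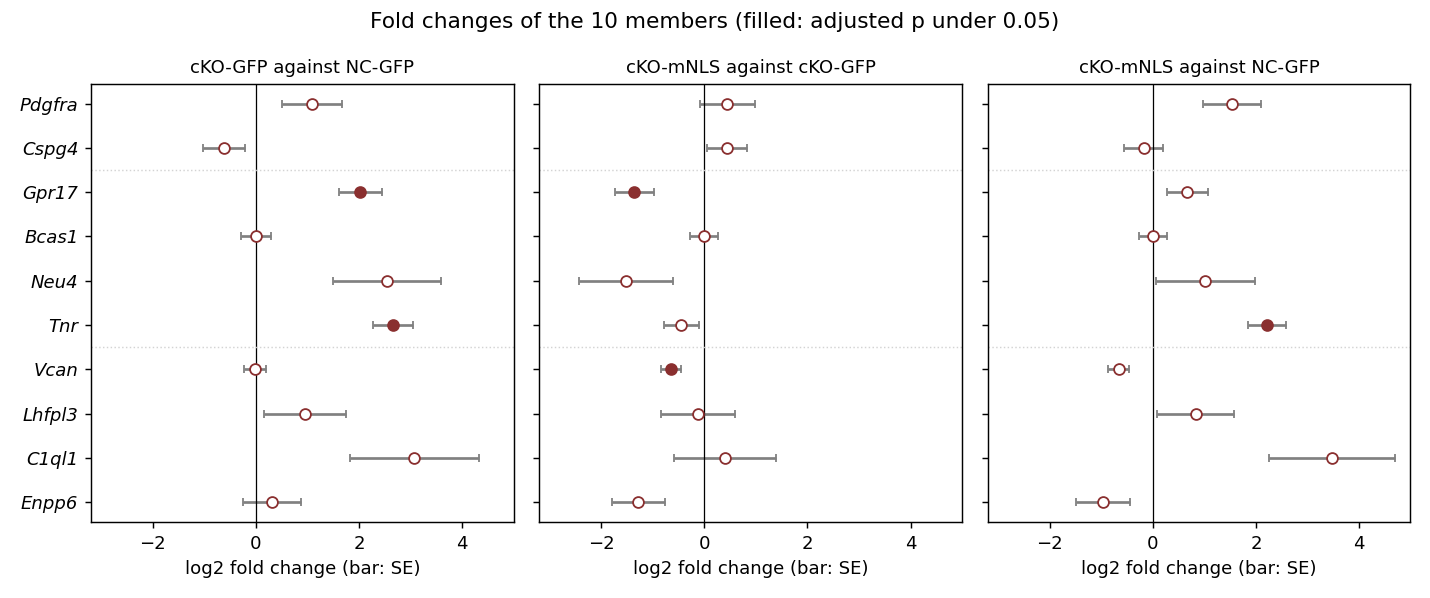
Log2 fold change of each of the 10 genes (x axis; bars are the SE, filled points have an adjusted p under 0.05) for cKO-GFP against NC-GFP, cKO-mNLS against cKO-GFP and cKO-mNLS against NC-GFP. Gpr17 is filled at 2.03 in the first panel and at -1.36 in the second, Tnr at 2.66 in the first and 2.22 in the third, and Vcan at -0.65 in the second.

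Among the genes in neither class, Vcan (chromosome 13, 89655312 to 89742509, minus strand), the gene of the matrix proteoglycan versican, stood at 23.0, 14.5, 13.7 and 18.7 CPM in cKO-mNLS, 28.7, 31.0 and 22.5 CPM in cKO-GFP and 29.5, 25.6 and 27.96 CPM in NC-GFP. The cKO-mNLS libraries were low, with 1 of them above the lowest cKO-GFP library and none above NC-GFP. Vcan fell in cKO-mNLS against cKO-GFP (-0.65 on the log2 scale, SE 0.201, adjusted p = 0.0479), but its sign turned to 0.042 (adjusted p = 0.969) when libraries were scaled to their mature oligodendrocyte genes. That call was also lost in 15 other alternatives of 19, among them 9 of the 10 fits that left out 1 library, with adjusted p from 0.0718 to 0.209, the exception being cKO-mNLS replicate 1. Against NC-GFP the value was similar and did not pass (-0.66, SE 0.201, adjusted p = 0.0548), and between cKO-GFP and NC-GFP it was -0.01 (adjusted p = 0.985).

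Enpp6 (chromosome 8, 46986887 to 47096762, plus strand), which encodes a choline-specific phosphodiesterase and marks newly forming oligodendrocytes, stood at 7.27, 8.90, 19.8 and 43.2 CPM in cKO-mNLS, 62.8, 47.5 and 34.2 CPM in cKO-GFP and 45.9, 27.0 and 43.5 CPM in NC-GFP. Replicates 1 to 3 of cKO-mNLS lay below all other libraries, and replicate 4 was within the range of the other groups. The fold change did not pass for cKO-mNLS against cKO-GFP (-1.28, SE 0.518, adjusted p = 0.121), and it passed without cKO-mNLS replicate 4 (-1.94, adjusted p = 0.00762). It was -0.97 (SE 0.518, adjusted p = 0.281) for cKO-mNLS against NC-GFP, which passed without the same library (-1.66, adjusted p = 0.0169), and 0.31 (SE 0.555, adjusted p = 0.832) for cKO-GFP against NC-GFP. In cKO-mNLS replicates 1 to 4 the mature oligodendrocyte genes summed to 6821, 8545, 17710 and 21120 CPM, the same order as Enpp6. Scaled to those genes, the fold change against cKO-GFP was -1.05 (adjusted p = 0.155).

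Lhfpl3 (chromosome 5, 22746059 to 23275597, plus strand), a tetraspan protein gene that marks precursors in single-cell surveys, varied widely within groups. It stood at 0.417, 2.76, 3.06 and 5.93 CPM in cKO-mNLS, 1.195, 4.31 and 4.45 CPM in cKO-GFP and 1.21, 2.76 and 1.13 CPM in NC-GFP, and all groups overlapped. No comparison passed, with log2 fold changes of 0.96 (adjusted p = 0.589) for cKO-GFP against NC-GFP, -0.12 (0.936) for cKO-mNLS against cKO-GFP and 0.83 (0.552) for cKO-mNLS against NC-GFP. The noncoding gene A930003O13Rik on the opposite strand shares 567 of its 3213 exon bases, with 78 counts in all against 689 for Lhfpl3.

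C1ql1 (chromosome 11, 102939264 to 102946688, minus strand), which encodes a secreted C1q-like protein made by precursors, was near the limit of detection. It had 47, 13, 3 and 14 counts in cKO-mNLS, 8, 23 and 11 counts in cKO-GFP and 3, 0 and 1 counts in NC-GFP. Every cKO-GFP library lay above every NC-GFP library, while cKO-mNLS replicate 3 did not. The fitted log2 fold changes, which depend on how low counts are moderated, were 3.08 (SE 1.25, adjusted p = 0.239) for cKO-GFP against NC-GFP, 0.40 (adjusted p = 0.831) for cKO-mNLS against cKO-GFP and 3.48 (SE 1.22, adjusted p = 0.0929) for cKO-mNLS against NC-GFP.

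Read as whole groups in CPM, Pdgfra, Gpr17, Neu4 and Tnr were higher in cKO-GFP than in NC-GFP without overlap, where 13.6% of all genes were higher in this way. C1ql1 was too, but it is not counted, since it passed the filter through the libraries other than NC-GFP, which held 4 reads of it in all. Between cKO-mNLS and cKO-GFP, 1 gene had no overlap, Gpr17, which was lower, where 12.4% of all genes were lower without overlap. Between cKO-mNLS and NC-GFP, Tnr was higher and Vcan lower without overlap, where 13.9% of all genes were higher and 10.8% lower in this way. In the authors' TPM, Pdgfra overlapped between cKO-GFP and NC-GFP, Gpr17 between cKO-mNLS and cKO-GFP, and Vcan between cKO-mNLS and NC-GFP. Cspg4 was lower in cKO-GFP than in NC-GFP without overlap in TPM. The median log2 fold change of the 4 committed genes was 2.29 for cKO-GFP against NC-GFP, -0.90 for cKO-mNLS against cKO-GFP and 0.85 for cKO-mNLS against NC-GFP. For the 2 precursor genes it was 0.24, 0.44 and 0.68 in the same order, and over all genes tested it was 0.04, -0.01 and -0.02.

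The balance of committed and precursor genes was read in each library as the mean log2(CPM + 0.5) of Gpr17, Bcas1, Neu4 and Tnr minus that of Pdgfra and Cspg4. It was -0.34, 0.06, 1.13 and 1.10 in cKO-mNLS, 2.41, 1.53 and 0.84 in cKO-GFP and 0.99, -0.75 and 0.05 in NC-GFP. The cKO-GFP libraries were highest on average, at 1.59 ± 0.785 (SD, n = 3), against 0.49 ± 0.744 (SD, n = 4) in cKO-mNLS and 0.10 ± 0.867 (SD, n = 3) in NC-GFP, and the groups overlapped. Without NC-GFP replicate 2 the difference between cKO-mNLS and NC-GFP was -0.029, where it was 0.39 with all libraries.

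The ratio of Gpr17 to Pdgfra, a committed gene over a precursor gene, was 1.12, 0.712, 4.48 and 2.00 in cKO-mNLS, 9.11, 4.04 and 2.85 in cKO-GFP and 5.52, 0.821 and 2.21 in NC-GFP. Each pair of groups overlapped. In 3 two-sided exact permutation tests over libraries, the mean log2 ratio differed by 1.13 between cKO-GFP and NC-GFP (p = 0.40, adjusted p = 0.60), by -1.53 between cKO-mNLS and cKO-GFP (p = 0.143, adjusted p = 0.429) and by -0.40 between cKO-mNLS and NC-GFP (p = 0.686, adjusted p = 0.686). The smallest p that these tests allow is 0.10 for 3 libraries against 3 and 0.0286 for 4 against 3. Tnr over Pdgfra was 3.77, 5.26, 35.2 and 6.35 in cKO-mNLS, 23.3, 9.25 and 9.22 in cKO-GFP and 7.95, 1.29 and 5.05 in NC-GFP. For this ratio the cKO-GFP libraries lay above NC-GFP, with 9.22 against 7.95 at the edge. This ratio was not among the planned results and was not tested. It uses the Tnr values again, so it is not a separate result on the balance.

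**Figure D3:**
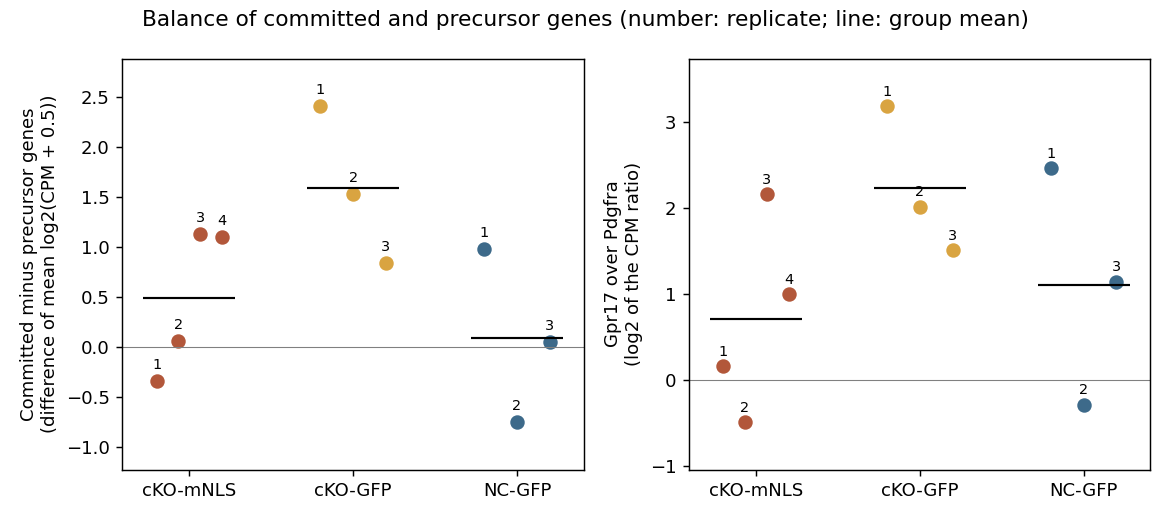
Left, mean log2(CPM + 0.5) of the 4 committed genes minus that of the 2 precursor genes, and right, log2 of the CPM ratio of Gpr17 to Pdgfra, in each library of cKO-mNLS, cKO-GFP and NC-GFP; numbers are replicates and lines are group means. The left values reach 2.41 in cKO-GFP and -0.75 in NC-GFP, and the groups overlap in both panels.

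Per length, in the authors' TPM, Bcas1 led in every group, at 33.5 ± 15.7 in cKO-mNLS (SD, n = 4), 33.6 ± 10.5 in cKO-GFP (SD, n = 3) and 37.0 ± 17.99 in NC-GFP (SD, n = 3). Enpp6 came second in every group, with a mean TPM of 5.46 in cKO-mNLS, 10.1 in cKO-GFP and 9.51 in NC-GFP. The next places depended on the group. In cKO-mNLS they were held by Tnr (3.88 TPM), Cspg4 (1.62), Gpr17 (1.40), Pdgfra (1.26) and Vcan (1.23), in cKO-GFP by Tnr (3.71), Gpr17 (3.00), Vcan (1.499), Cspg4 (0.827) and Pdgfra (0.643), and in NC-GFP by Vcan (1.65), Cspg4 (1.58), Tnr (0.995), Gpr17 (0.877) and Pdgfra (0.379). Lhfpl3, Neu4 and C1ql1 were the lowest 3 in each group, at mean TPM of at most 0.579. Neighbours in the order were apart by more than both SDs for Bcas1 and Enpp6 in all 3 groups, for Tnr and Cspg4 and for Vcan and Lhfpl3 in cKO-mNLS, for Enpp6 and Tnr, Gpr17 and Vcan, and Vcan and Cspg4 in cKO-GFP, and for Enpp6 and Vcan, Cspg4 and Tnr, Lhfpl3 and Neu4, and Neu4 and C1ql1 in NC-GFP. The remaining neighbours, among them Tnr and Gpr17 in cKO-GFP and in NC-GFP, did not differ beyond their spread.

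Other genes of the lineage gave few calls. Of 15 other precursor genes, 2 fell and 0 rose in cKO-GFP against NC-GFP, with a median log2 fold change of -0.47. These were Cspg5, a membrane proteoglycan gene, at 69.0, 71.6, 86.4 and 66.2 CPM in cKO-mNLS, 29.7, 42.6 and 33.7 CPM in cKO-GFP and 102, 133.5 and 121 CPM in NC-GFP (-1.75, adjusted p = 0.00171), and Ptprz1, a receptor phosphatase gene (-1.78, adjusted p = 0.0108). Both are also expressed by astrocytes, and 8 of 14 astrocyte genes fell in the same comparison, with a summed level of 1371 to 2173 CPM in cKO-GFP and 4616 to 5575 CPM in NC-GFP. The part of astrocytes in these 2 genes was not tested. Cspg5 rose in cKO-mNLS against cKO-GFP (1.05, adjusted p = 0.00263) and was the 1 gene of the 15 called (median 0.21). Against NC-GFP 3 of the 15 fell in cKO-mNLS (median -0.44), Ptprz1, Cspg5 and the transcription factor gene Sox6.

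The transcription factor genes Olig2 and Sox10 passed in none of the 3 comparisons. Olig2, needed for the lineage to form, averaged 47.2 ± 21.5 CPM in cKO-mNLS, 46.1 ± 7.20 in cKO-GFP and 64.0 ± 12.9 in NC-GFP, and Sox10 averaged 192 ± 86.7 CPM in cKO-mNLS, 237 ± 71.5 in cKO-GFP and 255 ± 13.9 in NC-GFP. Their log2 fold changes for cKO-GFP against NC-GFP were -0.47 (adjusted p = 0.50) and -0.11 (adjusted p = 0.915). Both groups of each comparison overlapped.

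Of 16 other genes of committed and newly formed cells, 0 passed in cKO-GFP against NC-GFP in edgeR, and the median was 0.35. An unadjusted p under 0.05 was reached by 4 of the 16, where 3425 of all 20379 genes reached it. The 3 of smallest p were all higher in cKO-GFP without overlap, the noncoding gene 9630013A20Rik (4.65 ± 3.96 CPM in cKO-GFP and 0.236 ± 0.375 in NC-GFP, n = 3 each; adjusted p = 0.0968), the kinase gene Fyn (101 ± 3.13 CPM in cKO-GFP and 74.2 ± 10.04 in NC-GFP; adjusted p = 0.121) and the kinesin gene Kif19a (9.78 ± 3.86 CPM in cKO-GFP and 4.34 ± 0.771 in NC-GFP; adjusted p = 0.181). They were picked by p, so their lack of overlap is not separate support, and 13.6% of all genes were higher in this way. Of the 16, 1 fell in cKO-mNLS against cKO-GFP (median -0.27), the calcium channel gene Itpr2 (-0.49, SE 0.136, adjusted p = 0.0302). In cKO-mNLS against NC-GFP, Itpr2 (-0.70, adjusted p = 0.00632) and Tcf7l2 (-0.61, adjusted p = 0.0336), a transcription factor gene of the premyelinating stage, fell (median 0.16). Of 20 genes of mature oligodendrocytes and myelin, 0 passed in edgeR in any comparison, with medians of -0.13, -0.37 and -0.48. Of these 20, 1, 1 and 2 had an unadjusted p under 0.05, where 3425, 6040 and 5110 of all 20379 genes did. Mbp, the gene of myelin basic protein, averaged 1310 ± 413 CPM in cKO-mNLS, 1508 ± 401 in cKO-GFP and 1701 ± 200 in NC-GFP.

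**Figure D4:**
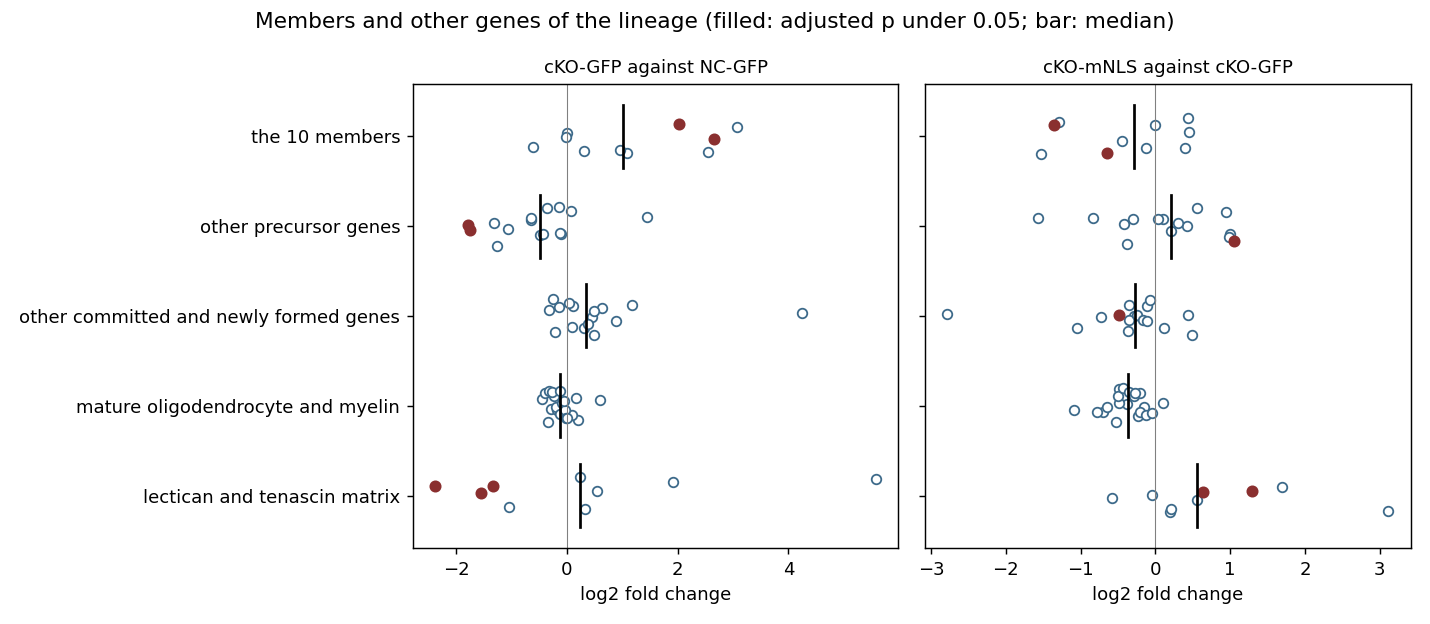
Log2 fold change of each gene (x axis) for the 10 genes and 4 related lists, for cKO-GFP against NC-GFP and cKO-mNLS against cKO-GFP; filled points have an adjusted p under 0.05 and bars are medians. The mature oligodendrocyte list has no filled point in either panel, with medians of -0.13 and -0.37.

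Genes of the matrix molecules that tenascin-R is found with gave calls in both directions. Of 9 tested genes of lecticans, tenascins and their partners, 3 fell and 0 rose in cKO-GFP against NC-GFP (median 0.25), where 1.1% of all genes were called lower. They were Hapln1, a link protein gene (3.51 ± 0.770 CPM in cKO-GFP and 18.3 ± 2.45 in NC-GFP, n = 3 each; -2.38, adjusted p = 0.00758), Ncan, the neurocan gene (36.8 ± 9.62 CPM in cKO-GFP and 92.4 ± 9.10 in NC-GFP; -1.33, adjusted p = 0.00821), and Bcan, the brevican gene (83.5 ± 2.76 CPM in cKO-GFP and 244 ± 42.0 in NC-GFP; -1.55, adjusted p = 0.0251). These genes fell in the libraries in which astrocyte genes fell, and the part of astrocytes was not tested. Against cKO-GFP, cKO-mNLS had 2 of the 9 higher (median 0.56): Cntn1, a contactin gene whose protein binds tenascin-R (1.30, adjusted p = 0.00529), and Ncan (0.64, adjusted p = 0.0369). In cKO-mNLS against NC-GFP, Cntn1 and Hapln4 rose while Hapln1, Bcan and Ncan fell (median -0.25). All 10 excitatory neuron genes rose in cKO-mNLS against cKO-GFP (median 3.72) and against NC-GFP (median 4.72). The part of neurons in the rises of Cntn1, Ncan and Hapln4 was not tested. Tnc, which encodes the related tenascin-C, did not pass between cKO-GFP and NC-GFP (3.78 ± 2.72 CPM in cKO-GFP and 7.79 ± 2.17 in NC-GFP; -1.04, adjusted p = 0.401).

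Among 24 ligands, receptors and signal genes of the precursor, 4 fell and 0 rose in cKO-GFP against NC-GFP (median -0.20). They were Adgrb3, whose product is a receptor of C1q-like proteins (13.1 ± 4.16 CPM in cKO-GFP and 52.5 ± 1.28 in NC-GFP, n = 3 each; -2.01, adjusted p = 0.0165), the fibroblast growth factor receptor genes Fgfr3 (-1.82, adjusted p = 0.0246) and Fgfr1 (-1.22, adjusted p = 0.0450) and the inhibitor of differentiation gene Id4 (-1.07, adjusted p = 0.0431). Fgfr3 and Id4 are expressed by astrocytes too, whose 14 genes, with Fgfr3 itself among them, had a median of -1.55 in this comparison with 8 lower. The part of astrocytes in these falls was not tested. In cKO-mNLS against cKO-GFP, 3 rose and 1 fell (median 0.12). Lingo1, a negative regulator of oligodendrocyte differentiation that neurons also express, rose by 3.92, at 39.1 ± 23.1 CPM in cKO-mNLS (n = 4) and 2.59 ± 1.25 CPM in cKO-GFP (n = 3; adjusted p = 0.00167), Adgrb3 rose by 1.97 (adjusted p = 0.0038) and Fgfr1 by 1.29 (adjusted p = 0.00706). Cysltr1, a cysteinyl leukotriene receptor gene, fell (-1.16, adjusted p = 0.0161). All 10 excitatory neuron genes rose in the same comparison (median 3.72), and their part in Lingo1 and Adgrb3 was not tested. In cKO-mNLS against NC-GFP, Lingo1 rose and Adgrg1, Fgfr3 and Cysltr1 fell (median -0.23). Microglial genes fell in cKO-mNLS too, 7 of 12 against cKO-GFP (median -0.98) and 6 of 12 against NC-GFP (median -1.06). The part of microglia in Cysltr1 and Adgrg1 was not tested.

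Of 12 genes of cell division, 1 passed between the groups given GFP alone. Mcm2, a replication helicase subunit gene, rose in cKO-GFP against NC-GFP (21.8 ± 6.80 CPM in cKO-GFP and 8.67 ± 1.19 in NC-GFP, n = 3 each; 1.33, adjusted p = 0.0267), with a median of 0.95 over the list. In cKO-mNLS against cKO-GFP, 7 fell and 0 rose (median -1.62), among them Mcm2 (-1.67, adjusted p = 0.00198), Top2a (-2.21, adjusted p = 0.00266) and Rrm2 (-2.65, adjusted p = 0.0035). In cKO-mNLS against NC-GFP, 2 fell (median -0.57). The summed level was 88.1 to 127.5 CPM in cKO-mNLS, 174.7 to 322 in cKO-GFP and 126 to 141 in NC-GFP. Single genes did not all follow the sum, since Mki67, a marker of dividing cells, was at 70.8 CPM in cKO-mNLS replicate 1 and at 61.0 CPM in cKO-GFP replicate 2. Microglial genes also fell in cKO-mNLS against cKO-GFP (7 of 12, median -0.98), as did all 9 blood cell genes tested (median -6.65), so which dividing cells these transcripts came from was not tested.

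Within groups, the 10 genes varied with little common order. The deviations of log2(CPM + 0.5) from the group means over the 10 libraries, a description with no test, correlated at 0.77 for Vcan and C1ql1, 0.68 for Pdgfra and C1ql1 and 0.62 for Gpr17 and Tnr. The 2 precursor genes correlated at 0.23, Pdgfra and Gpr17 at -0.04, Cspg4 and Gpr17 at -0.69, and Cspg4 and Enpp6 at -0.80. Among 11475 genes with a mean of at least 5 CPM, those most like Gpr17 were Uty (r = 0.95), Dusp16 (0.94), Mindy3 (0.94), Zfp983 (0.92) and Wdr62 (0.92). Those most like Pdgfra were Arhgap15 (0.96), Tbc1d1 (0.96), Pstk (0.95), Zc3h12d (0.95) and Apeh (0.95). With 10 libraries and that many genes, values of this size are read as a ranking.

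TDP-43 binds RNA rich in UG repeats. The letters TGTGTG occurred in the longest annotated protein-coding transcript of 9 of the 10 genes, all but C1ql1, against 68.0% of 21877 protein-coding genes. These are spliced sequences, so introns were not searched. For Tnr, 12202 bases were searched of a gene that spans 407961. Neu4 had the longest run of alternating TG, 13 bases, a length that 5.97% of genes reach, and Tnr had one of 10 bases, which 9.96% of genes reach. A longer transcript is likelier to hold a match, and those of the 10 genes were 1473 to 12427 bases long. Per kilobase, the 10 genes lay on both sides of the median of 0.476 over all genes. Below it were C1ql1 (0), Cspg4 (0.123), Vcan (0.161), Gpr17 (0.192) and Enpp6 (0.402). Above it were Tnr (0.492), Pdgfra (0.585), Lhfpl3 (0.642), Bcas1 (1.02) and Neu4 (1.77).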

How the data were processed

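RNA was sequenced from 10 libraries of sorted GFP-positive mouse brain cells, each made from 1 ng of RNA with a stranded SMART-Seq kit, per the labels. The deposited table holds an estimated count and a TPM value per gene and library. The estimated counts of the authors carry no normalization as judged from their differing totals, and 5.84% of them were not whole. In TPM, the authors scaled for length and library total. The tool and build listed, per the submitters' processing notes, are DRAGEN and GRCm38/mm10. The sources used here name no version, annotation release, counting settings or use of strand. Of the gene identifiers, 98.1% matched GENCODE M21 with the same coordinates.

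Estimated counts were rounded. The test was edgeR 4.0.16 (R 4.3.3), quasi-likelihood, TMM scaling, robust, 1 model of 3 groups with 7 residual degrees of freedom, after its group-wise filter (minimum count 10), with Benjamini-Hochberg adjustment. CPM used TMM-scaled totals. The common biological coefficient of variation was 0.406. Alternatives were edgeR with DESeq2's size factors, DESeq2 1.42.0, voom (limma 3.58.1), no or a stricter filter, only the compared groups, a replicate block and each library left out. Scaling to mature oligodendrocyte genes and limma on log2(TPM + 0.1) were added after seeing the data. In simulated counts, genes altered by a log2 value of 1 and of 2 were recovered at 13% and 64% for cKO-GFP against NC-GFP (19762 genes; 4.94% of calls were false), at 16% and 52% for cKO-mNLS against cKO-GFP (19761 genes) and at 24% and 56% for cKO-mNLS against NC-GFP (19745 genes). Far fewer genes were altered in each simulation than were called in the cKO-mNLS comparisons (3273 and 2341). Adjusted p-values depend on that number, so the rates do not give the power there.

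The 10 genes and the other lists were chosen with earlier results of these data known. Named genes were the 10, Tardbp, up to 3 genes of smallest p per other list and comparison, and the 5 genes most like Gpr17 and Pdgfra. Lims2, A930003O13Rik, Olig2, Sox10, Mbp, Tnc and called list genes beyond the 3 were named after their values were seen. Lists of endothelial and mural cells (0 of 13 called in any comparison), inhibitory neurons (0, 3 and 3 of 8 called) and immature neurons (1, 6 and 6 of 8) were further markers, the last 2 given for cKO-GFP against NC-GFP, cKO-mNLS against cKO-GFP and cKO-mNLS against NC-GFP.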

Additional observations from a re-analysis of the deposited data

Results flagged for a closer look

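The Bcas1 level of cKO-mNLS replicate 2 lay far from the other libraries of its group, at 56.0 CPM where replicates 1, 3 and 4 stood at 121, 123.5 and 117.5 CPM. The gap to the nearest library was 0.912 of the group's range, above the 95% limit of Dixon's test for 4 values. The test was applied to the cKO-mNLS values of the 10 genes, and chance gives such a gap in about 1 in 20 groups. The same library held 8545 CPM of mature oligodendrocyte genes, against 6821, 17710 and 21120 CPM in replicates 1, 3 and 4.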

How the results depend on the processing

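Tnr in cKO-mNLS against NC-GFP kept its call under all 19 alternatives. Precision was limited by 3 or 4 libraries a group and, for Neu4 and C1ql1, by counts. Where no cause is named, the cause was not tested.

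In cKO-GFP against NC-GFP, the 333 genes called (108 higher, 225 lower) became 1376 with DESeq2 (638 higher, 738 lower), 1512 with voom (689 and 823), 754 with only the compared groups, 176 with the replicate block, 168 on TPM (32 and 136) and 1 when scaled to mature oligodendrocyte genes, and 61 to 755 when 1 library was left out. Of the 10 genes, 1 was called without a filter, 0 on TPM and 0 with oligodendrocyte scaling, and 0 to 2 without 1 library. Under that scaling Gpr17 stood at 2.21 (adjusted p = 0.264) and Tnr at 2.88 (0.0722), and Gpr17 was at 2.00 (0.0676) without a filter and 1.87 (0.142) on TPM.

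In cKO-mNLS against cKO-GFP, 3273 genes (1819 higher, 1454 lower) became 1982 on TPM (1630 and 352) and 1682 (1630 higher, 52 lower) with oligodendrocyte scaling, and 1178 to 3629 without 1 library. Of the 10 genes, 1 was called with DESeq2 size factors, the stricter filter or only the compared groups, 0 without a filter, on TPM or with oligodendrocyte scaling, and 0 to 2 without 1 library. Under that scaling Vcan turned to 0.042 and Gpr17 to -0.72 (adjusted p = 0.432).

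In cKO-mNLS against NC-GFP, 2341 genes (1678 higher, 663 lower) became 3567 with DESeq2, 2073 (2040 and 33) with oligodendrocyte scaling, 1637 (1422 and 215) on TPM and 1217 to 2603 without 1 library. Of the 10 genes, 4 were called with DESeq2 (Pdgfra, Tnr and C1ql1 higher, Vcan lower), 2 with voom, which called 2847 of all genes, 2 with the replicate block, 3 with oligodendrocyte scaling, and 1 to 2 without 1 library. The call on C1ql1 is not read as a result, since that gene passed the filter through the libraries other than NC-GFP. Leaving out 1 library gave 1.08 to 1.94, -1.48 to -0.70 and -0.029 to 0.84 for the committed minus precursor level in the 3 comparisons, in the order above, and 0.43 to 1.81, -2.01 to -1.05 and -1.10 to 0.28 for the log2 Gpr17 to Pdgfra ratio.

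Same-numbered libraries did not deviate together over all genes tested (r from -0.21 to 0.08). The labels do not say whether equal numbers share a batch, and this was not tested. With the block, Enpp6 passed in cKO-mNLS against cKO-GFP (-2.09, adjusted p = 0.0135) and NC-GFP (-1.72, 0.0281), and Vcan did not in the first (-0.71, 0.0631). Only cKO-mNLS has a replicate 4, so the block gave that library its own term and took it out of every comparison. For Enpp6 the block is therefore close to the fit without cKO-mNLS replicate 4, not a separate check.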
